A study of Mus musculus with 2 samples.

Results

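The matrix metalloproteinase genes Mmp8, Mmp9, Mmp12, Mmp13, Mmp14 and Mmp19, together with Timp2, the gene of an inhibitor of these enzymes, were followed across the innate immune cells of mouse liver. They were taken by name, and they are 7 of the 25909 genes of the deposited single-cell RNA-seq (scRNA-seq) matrix. All 7 had counts, in between 372 cells (Mmp13) and 4918 cells (Mmp14) of 15394 cells assigned to a mouse.

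Matrix metalloproteinases are zinc-dependent enzymes that cut collagen, elastin and other proteins outside the cell, and most are secreted as inactive precursors that another protease must cleave. Mmp8 (neutrophil collagenase) and Mmp13 (collagenase) cut fibrillar collagen, Mmp9 is a gelatinase stored in neutrophil granules, Mmp12 is the macrophage elastase, Mmp14 is held in the plasma membrane, and Mmp19 is a secreted member of the family that cuts basement membrane proteins. Timp2 blocks these enzymes, and it also takes part in the activation of the Mmp2 precursor by Mmp14 on the cell surface. In fibrotic liver, macrophages and neutrophils are known sources of such enzymes, which act on the scar matrix.

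The cells came from 4 mice, 1 for each combination of diet and genotype. The diets were normal diet (ND) and CDA-HFD, a diet rich in fat that lacks choline and is built from single amino acids, which induces metabolic dysfunction-associated steatohepatitis (MASH) and was fed for 7 weeks to male mice aged 6 to 12 weeks at its start. The genotypes were Egr2fl/fl, with both copies of the Egr2 gene floxed and no Cre, and Lyz2Cre/+.Egr2fl/fl, in which Cre from 1 copy of the myeloid gene Lyz2 deletes the floxed gene, so that all 4 mice carried floxed Egr2. Liver cells positive for CD45.2 and CD11b and negative for CD90.2, B220, NK1.1 and SiglecF were sorted from each mouse, given a hashtag (A951 to A954), pooled and captured together on a microwell system (BD Rhapsody) with TAS-Seq amplification.

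After filtering, 1723 (Egr2fl/fl) and 1590 (Lyz2Cre/+.Egr2fl/fl) cells of the ND-fed mice and 5885 (Egr2fl/fl) and 6186 (Lyz2Cre/+.Egr2fl/fl) cells of the CDA-HFD-fed mice remained, with 27840300 to 90124521 counts a mouse and a median of 13168 to 16459 counts a cell. No barcode was shared between mice. With 1 mouse per group no test between groups was made, and the spread between mice is unknown: levels are a gene's counts scaled to 1000000 counts of the same cells (CPM) with exact Poisson 95% intervals, shares of cells carry exact Clopper-Pearson 95% intervals, and ratios carry exact 95% intervals, all of which cover counting error only. The intervals of levels and ratios treat each count as independent, and where many counts come from few cells they are too narrow. A ratio of at least 2 or at most 0.5 is called past 2-fold, as a description. Where 4 values are listed they follow the order ND-fed Egr2fl/fl, ND-fed Lyz2Cre/+.Egr2fl/fl, CDA-HFD-fed Egr2fl/fl, CDA-HFD-fed Lyz2Cre/+.Egr2fl/fl, and a pair within a diet gives the Egr2fl/fl mouse before the Lyz2Cre/+.Egr2fl/fl mouse.

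Each cell was placed in a class by lists of marker genes, and the class names below mean cells that are like that type by these markers. Neutrophils made up 6.04, 11.9, 15.3 and 11.7% of the 4 mice's cells, Ly6Chi monocytes 7.78, 4.78, 18.6 and 21.3%, and monocyte-derived macrophages 4, 3.27, 18 and 19.1%. Kupffer cells (KCs), the resident macrophages of the liver, made up 44.1 and 51.5% of the ND cells and 0.221 and 0.42% of the CDA-HFD cells, which left 13 and 26 CDA-HFD KCs. All 12 KC markers, all 10 Ly6Chi monocyte markers, all 10 Ly6Clo monocyte markers and 11 of 12 neutrophil markers (not Ly6g) were raised in their class, against 7 of 12 for monocyte-derived macrophages (Apoe, C1qb, Cd63, Cx3cr1, Gpnmb, Ms4a7 and Trem2, while Adgre1, C1qa, C1qc and Fcgr1 were raised in KCs instead). Monocyte-derived macrophages were also the least sharply cut class, with 31.3% of them close to the limit of the gate against 3.58% of KCs, and between 7.8 and 23.6% of a mouse's cells passed no gate and are called unassigned. Egr2 itself, the targeted gene, stood at 68, 5.5, 52.8 and 8.39 CPM in monocyte-derived macrophages, lower in both Lyz2Cre/+.Egr2fl/fl mice.

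The members lie in 5 places of the genome (GRCm38). Mmp13 (chr9:7272514-7283331), Mmp12 (chr9:7344381-7369499) and Mmp8 (chr9:7558456-7568485) belong to a run of 9 Mmp genes over 427 kb of chromosome 9, with 61 kb between Mmp13 and Mmp12 and 189 kb between Mmp12 and Mmp8. Mmp9 is at chr2:164940780-164955850, Mmp14 at chr14:54431612-54445364, Mmp19 at chr10:128790910-128800824, and Timp2, on the minus strand, at chr11:118301069-118355740. Mmp12 overlaps Mmp1b and Mmp19 overlaps Gm47093 and Tmem198b on the other strand, Timp2 holds Cep295nl on its own strand, and since the strand setting of the counting is not given in the sources used here, reads of these partners could not be told apart from those of the member.

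The start regions of the 3 chromosome 9 neighbours are shown because their levels, given below, were highest in different groups of cells: Mmp13 in monocyte-derived macrophages of the ND mice, Mmp12 in those of the CDA-HFD mice and Mmp8 in neutrophils. That of Mmp14 is shown because it was the only one among 6 windows of 5 members with the letters bound by EGR proteins, the family of the deleted factor. The windows run from 250 bases before to 50 bases after a transcript start (RefSeq, GRCm38.p6, plus strand), and capitals mark the AP-1 letters TGANTCA, the TATA letters TATAAA, which read on the other strand as TTTATA, the PU.1 letters GAGGAAGT (ACTTCCTC on the other strand) and the EGR letters GCGNGGGCG (CGCCCNCGC on the other strand).
Mmp13, chr9:7272264-7272563: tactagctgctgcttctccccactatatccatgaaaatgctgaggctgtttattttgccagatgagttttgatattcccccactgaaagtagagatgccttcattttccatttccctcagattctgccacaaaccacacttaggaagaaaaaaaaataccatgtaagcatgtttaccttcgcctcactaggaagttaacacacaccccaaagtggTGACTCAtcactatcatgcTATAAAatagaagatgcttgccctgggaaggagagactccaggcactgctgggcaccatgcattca
Mmp12, a start inside the gene, chr9:7347124-7347423: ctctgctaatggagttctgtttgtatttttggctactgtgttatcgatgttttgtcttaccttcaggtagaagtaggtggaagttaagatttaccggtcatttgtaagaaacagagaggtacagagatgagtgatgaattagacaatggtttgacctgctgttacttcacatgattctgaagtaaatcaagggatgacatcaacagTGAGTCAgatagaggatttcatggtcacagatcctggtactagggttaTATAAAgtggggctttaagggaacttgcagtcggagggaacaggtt
Mmp8, chr9:7558179-7558478: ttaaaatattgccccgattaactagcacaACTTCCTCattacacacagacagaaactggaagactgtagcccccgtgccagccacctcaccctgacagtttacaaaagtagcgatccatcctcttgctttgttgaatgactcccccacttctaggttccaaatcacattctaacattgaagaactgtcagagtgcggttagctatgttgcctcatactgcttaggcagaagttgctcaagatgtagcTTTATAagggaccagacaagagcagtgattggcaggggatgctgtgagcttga
Mmp14, chr14:54431348-54431647: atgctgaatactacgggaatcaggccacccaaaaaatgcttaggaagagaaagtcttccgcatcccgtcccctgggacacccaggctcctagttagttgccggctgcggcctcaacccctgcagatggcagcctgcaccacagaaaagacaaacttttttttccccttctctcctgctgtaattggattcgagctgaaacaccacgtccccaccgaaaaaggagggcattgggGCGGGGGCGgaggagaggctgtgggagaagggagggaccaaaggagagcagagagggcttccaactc

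Mmp13 and Mmp12 carried both the AP-1 letters, beginning at positions -35 and -44 from the start, and the TATA letters, beginning at -16 and, after the start, at 4. Mmp14 carried the EGR letters at -17. Mmp8 carried the TATA letters at -3 and, at -221, the PU.1 letters, which also stood at -88 in the other Mmp12 window. Of 32851 windows of all genes, 7.81% held the AP-1 letters, 13.6% the TATA letters, 3.2% the PU.1 letters and 5.55% the EGR letters. The matches describe these letters in these windows, and binding was not measured.

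Across all sorted cells of a mouse, Mmp8, Mmp12, Mmp14 and Mmp19 were past 2-fold higher on CDA-HFD than on ND in the Egr2fl/fl pair, 4 of 7 members where 5.21% of all tested genes were, and Timp2 was past 2-fold lower, where 10.5% were. In the Lyz2Cre/+.Egr2fl/fl pair Mmp12 and Mmp14 were past 2-fold higher (5.3% of all tested genes) and Mmp13 and Timp2 past 2-fold lower (11%). Between genotypes on ND, Mmp9 alone among the 7 was past 2-fold, higher in the Lyz2Cre/+.Egr2fl/fl mouse (1.57% of all tested genes, with 0.731% lower). On CDA-HFD, Mmp12, Mmp13 and Mmp19 were past 2-fold lower in the Lyz2Cre/+.Egr2fl/fl mouse, 3 of 7 where 0.382% of all tested genes were, and no member was past 2-fold higher (1.05%). Several of these calls lay near the limit. As a mean over cells of each cell's CPM, the Mmp8 diet ratio of the Egr2fl/fl pair was 1.23 and not 2.04, and the CDA-HFD genotype ratios of Mmp12, Mmp13 and Mmp19 were 0.513, 0.641 and 0.502 and not 0.434, 0.499 and 0.485. The Mmp19 diet ratio of the Egr2fl/fl pair, 2.27, was 1.84 without the 1% of cells with the highest Mmp19, and the ND genotype ratio of Mmp9, 2.31, was 1.86 in cells with at least 90% of hashtag counts from their own mouse. Mmp12, with diet ratios of 19.8 (17.8 to 22.1) and 14.6 (12.6 to 17.1), lay furthest from 1, and its first diet ratio ran from 8.63 as a mean over cells to 85.1 without the 1% of cells with the highest Mmp12. In values over all cells a change in the mix of cells and a change within a type cannot be told apart, and the members are therefore taken class by class.

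**Figure D1:**
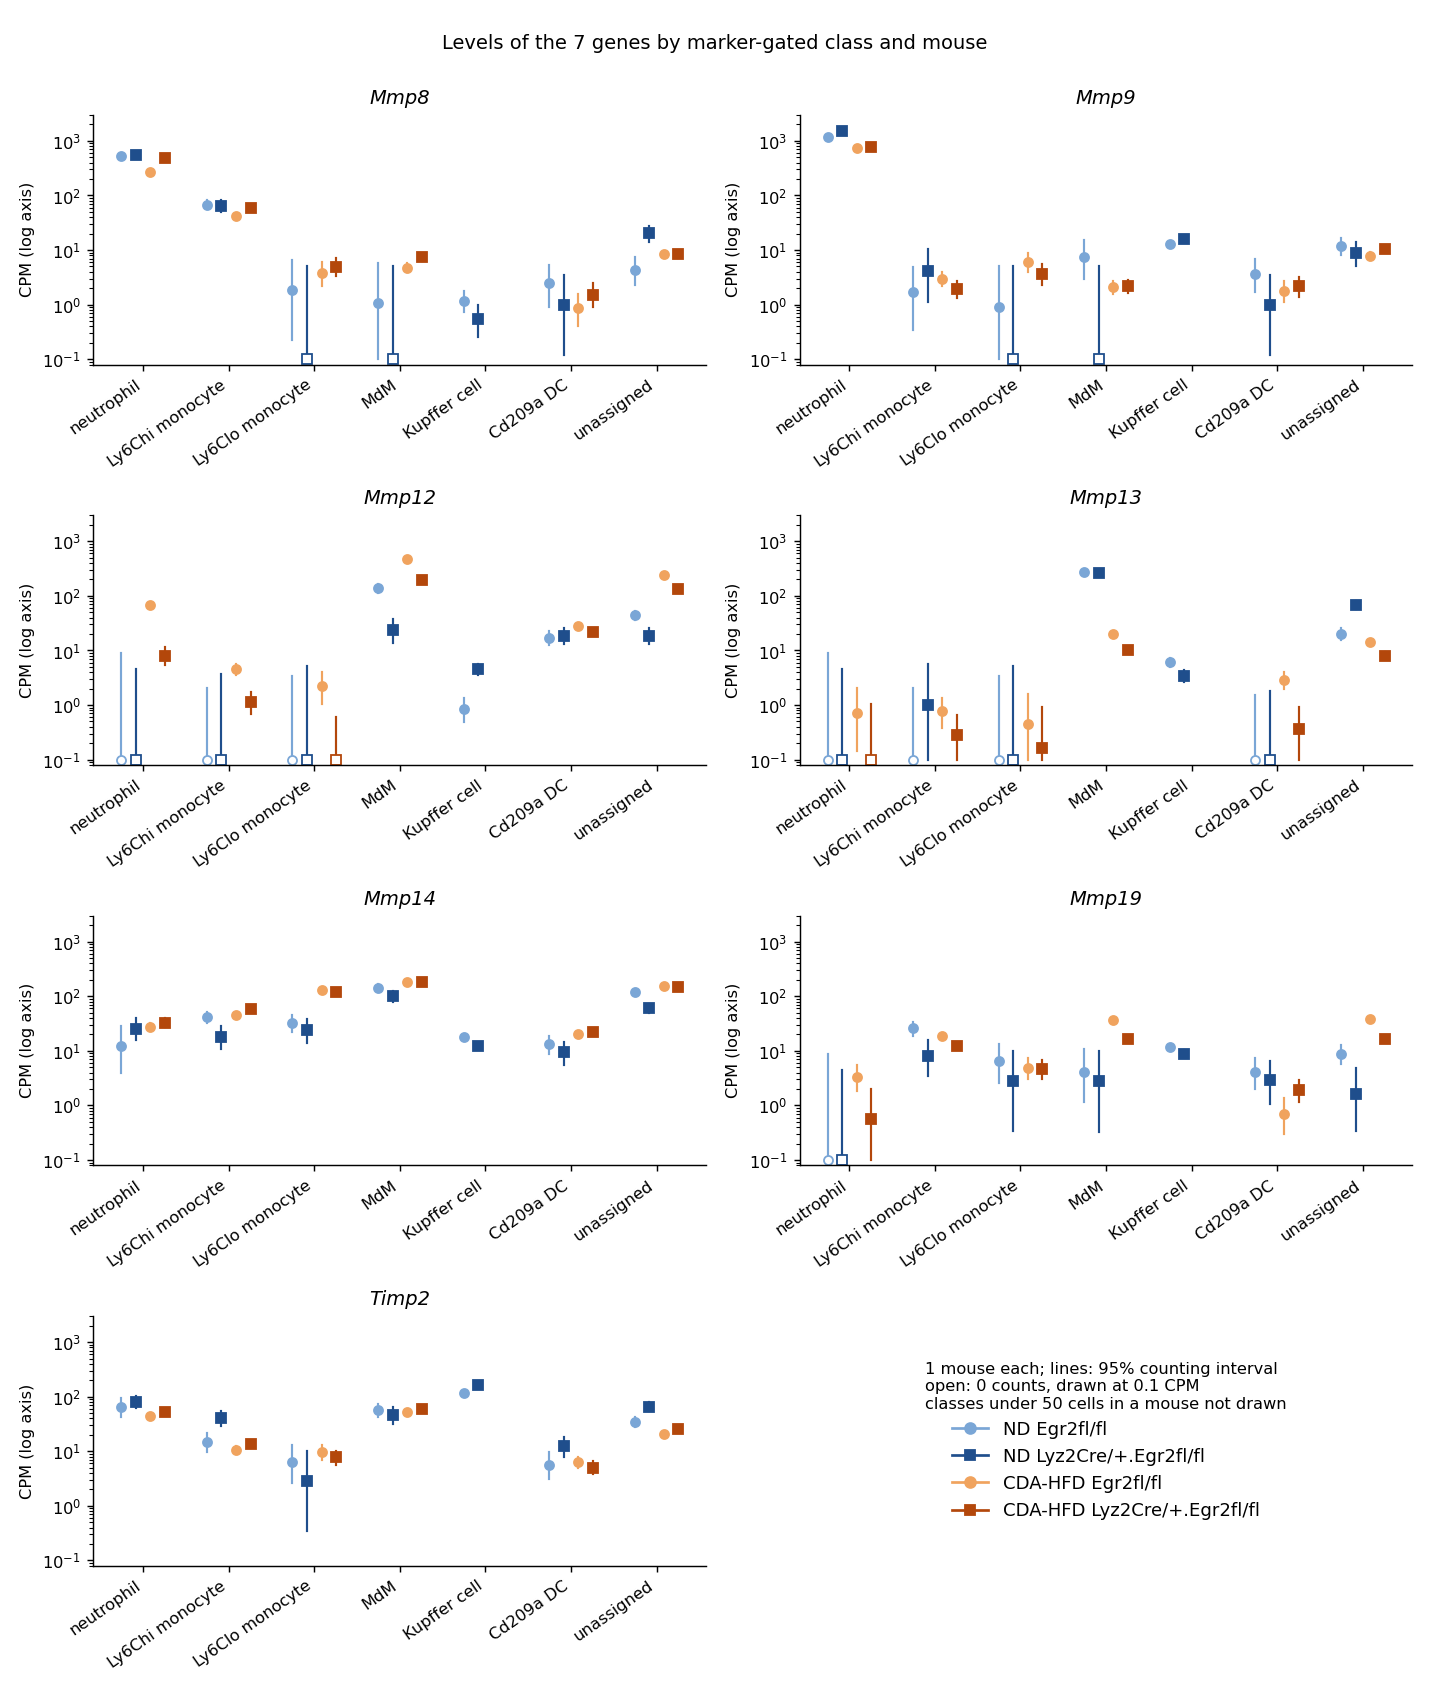
Level of each of the 7 genes in each marker-gated class, in CPM on a log axis, 1 point per mouse with exact Poisson 95% intervals; open points stand for 0 counts and are drawn at 0.1 CPM, and classes with under 50 cells in a mouse are not drawn (MdM, monocyte-derived macrophage; DC, dendritic cell). Mmp8 and Mmp9 have their highest points in neutrophils (271 to 553 and 739 to 1547 CPM), and Mmp12 and Mmp13 in monocyte-derived macrophages, where the CDA-HFD points lie above the ND points for Mmp12 and below them for Mmp13.

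Mmp8, the neutrophil collagenase, was highest in neutrophils in every mouse, at 533, 553, 271 and 487 CPM (intervals 465 to 608, 503 to 606, 255 to 287 and 465 to 510). The CDA-HFD-fed Egr2fl/fl mouse stood apart with the lowest level. There the ratio of CDA-HFD to ND was 0.508 (0.44 to 0.59), against 0.881 (0.794 to 0.979) in the Lyz2Cre/+.Egr2fl/fl pair. TMM scaling (a trimmed mean of M-values) multiplied these ratios by 1.35 and 1.21. It thus brought the first nearer to 1 and turned the second to 1.06. The ratio of Lyz2Cre/+.Egr2fl/fl to Egr2fl/fl was 1.04 (0.881 to 1.22) on ND and 1.8 (1.67 to 1.94) on CDA-HFD. Mmp8 counts were found in 46.2, 40.5, 25.8 and 35.8% of neutrophils, whose median depth was 3792 to 4077 counts a cell, and in 1.97 and 1.22% of ND KCs, which are not known to make it, at a depth of 25706 and 23220. With every cell thinned to 3000 counts the neutrophil shares were 45.2, 37.9, 22.7 and 31.7% and the KC shares 0 and 0.122%.

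The second source of Mmp8 was the Ly6Chi monocyte, the circulating precursor of inflammatory macrophages. Its Mmp8 level was 68.2, 63.9, 42.7 and 59.8 CPM, with Mmp8 in 12.7, 11.8, 8.88 and 10.9% of thinned cells, and these cells held 31.6, 11.1, 29.4 and 32.7% of all Mmp8 counts of a mouse, against 57, 79.9, 54.7 and 54.3% for neutrophils. The order of the 4 mice was close to that in neutrophils: lowest in the CDA-HFD-fed Egr2fl/fl mouse, with a CDA-HFD genotype ratio of 1.4 (1.27 to 1.55). Mmp8 was also set against other neutrophil transcripts. Per 1000 counts of S100a8, S100a9 and Retnlg, 3 abundant neutrophil transcripts, neutrophils had 3.91, 4.03, 3.04 and 4.55 Mmp8 counts and Ly6Chi monocytes 533, 606, 149 and 240, while ND KCs had 5.74 and 2.64, on 22 and 10 Mmp8 counts. The part of free neutrophil RNA in the counts of other classes was not tested. In monocyte-derived macrophages of the CDA-HFD mice Mmp8 was low, at 4.76 and 7.41 CPM.

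A few cells weighed heavily on the neutrophil value of Mmp8. When the 1918 neutrophils were clustered without the members among the genes used, a cluster of 34 cells led by Ngp, Camp and Ltf, genes of granule proteins that immature neutrophils make, had 2481 and 2159 CPM of Mmp8 in the CDA-HFD mice. It held 6 and 24 cells, and these 24 cells, 3.31% of that mouse's neutrophils, gave 707 of its 1751 neutrophil Mmp8 counts. Without the cluster, an alternative chosen after seeing the data, the CDA-HFD genotype ratio was 1.44 and the Egr2fl/fl diet ratio 0.417. Within the larger clusters the genotype ratio on CDA-HFD was 1.5 (1.18 to 1.9) in the cluster led by Ptpn22, 1.44 (1.26 to 1.64) in the cluster led by Rnf144a and 1.16 (0.929 to 1.44) in the cluster led by Mrgpra2a, and it was 0.423 in the cluster led by AI467606, which held 21 and 46 cells. The diet ratio of Mmp8, below 1 over all neutrophils, was above 1 in the clusters with at least 20 cells in both mice: in the cluster led by AI467606 it was 2.34 (1.85 to 2.95) in the Egr2fl/fl pair, on 21 CDA-HFD and 80 ND cells, and 1.23 (0.979 to 1.54) in the Lyz2Cre/+.Egr2fl/fl pair, and in the cluster led by Rnf144a it was 1.08 (0.808 to 1.47) in the latter pair. In the Egr2fl/fl pair the Rnf144a cluster stood at 416 CPM on ND, in 19 cells, and 401 CPM on CDA-HFD.

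Camp, Ltf, Ngp and Cd177, a surface protein of neutrophils, were past 2-fold higher in CDA-HFD neutrophils of the Lyz2Cre/+.Egr2fl/fl mouse, 4 of the 9 tested of 11 listed neutrophil granule genes, where 1.02% of all tested genes were. Camp was at 771 and 2870 CPM, Ngp at 1245 and 3473, Ltf at 296 and 811 and Cd177 at 81.1 and 184. The median log2 ratio of the 9 was 0.95, against 0.02 over all tested genes. Camp was found in 2.34% of neutrophils and Ngp in 2.75%, so that these values too rested on few cells.

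Mmp9, the gelatinase of neutrophil granules, was found in most neutrophils, in 81.7, 92.6, 71.2 and 75.2% of them. Its neutrophil level was 1172, 1547, 739 and 778 CPM (intervals 1070 to 1281, 1463 to 1635, 713 to 765 and 749 to 807). Both CDA-HFD mice were below both ND mice, with diet ratios of 0.63 (0.573 to 0.695) in the Egr2fl/fl pair and 0.503 (0.47 to 0.538) in the Lyz2Cre/+.Egr2fl/fl pair. TMM scaling, which shifted neutrophil diet ratios by 0.43 and 0.27 on the log2 scale, left the Egr2fl/fl ratio at 0.852. The summed CPM of the 12 neutrophil markers was also lower in CDA-HFD neutrophils, at 145186, 145825, 97164 and 114761. Between genotypes Mmp9 was 1.32 (1.19 to 1.47) on ND and 1.05 (1 to 1.11) on CDA-HFD, the latter 0.984 under TMM scaling. No member was past 2-fold lower on CDA-HFD among neutrophils of the Egr2fl/fl pair, where 6.01% of all tested genes were, while Mmp12 and Mmp14, both with few counts there, were past 2-fold higher (16.2%), Mmp14 with 2.27 (0.944 to 7.11), or 1.46 without the neutrophil cluster led by H2-Ab1 and 1.07 with classes from clusters.

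The lower CDA-HFD level of Mmp9 went with a different make-up of the neutrophil class. The cluster led by AI467606, Mtus1 and Myadm held 76.9 and 78.9% of ND neutrophils and 2.34 and 6.34% of CDA-HFD neutrophils. In this cluster Mmp9 was at 1274, 1691, 1353 and 1111 CPM, with a diet ratio of 1.06 (0.862 to 1.3) in the Egr2fl/fl pair, on 80 and 21 cells, and of 0.657 in the Lyz2Cre/+.Egr2fl/fl pair, on 150 and 46 cells. The CDA-HFD neutrophils lay mostly in other clusters, where Mmp9 was at 935 and 848 CPM (led by Ptpn22), 908 and 885 (led by Rnf144a), 595 and 639 (led by Mrgpra2a), and 273 and 336 (led by Nqo1 and Srxn1, genes of the response to oxidative stress). The part of the make-up in the diet ratio was not tested.

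**Figure D2:**
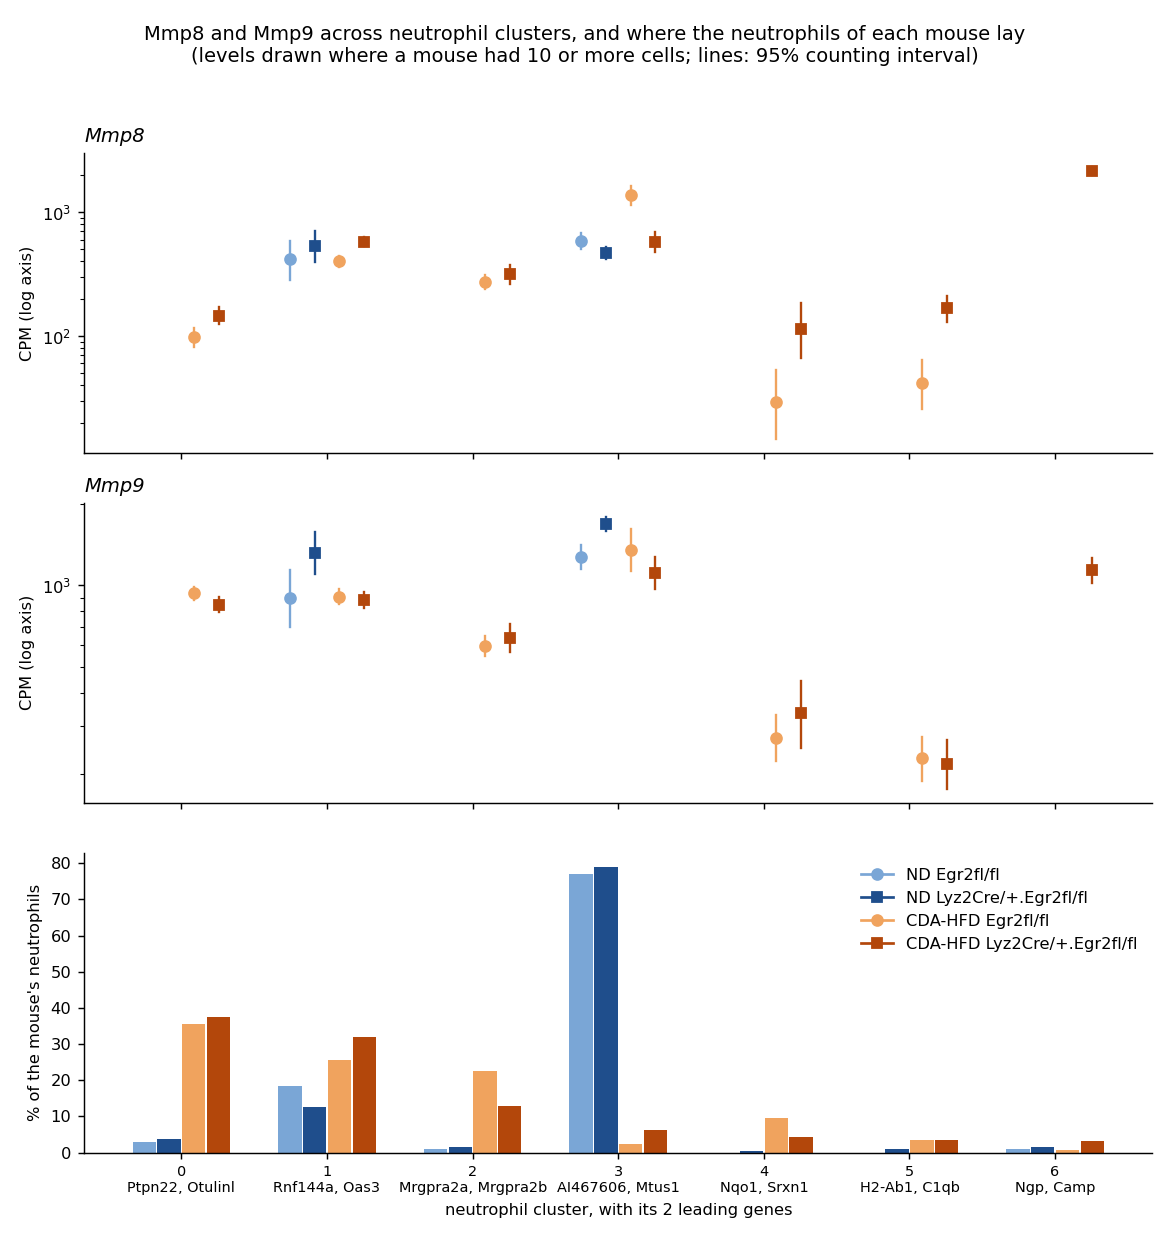
Mmp8 and Mmp9 in each cluster of neutrophils, in CPM by mouse with exact Poisson 95% intervals where a mouse has at least 10 cells, with bars for the percentage of each mouse's neutrophils in the cluster. The cluster led by AI467606 holds 76.9 and 78.9% of ND neutrophils and 2.34 and 6.34% of CDA-HFD neutrophils, and the cluster led by Ngp, Camp and Ltf has the highest Mmp8 points.

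KCs were the other source of Mmp9 on ND. Their Mmp9 level was 13 and 15.7 CPM (ratio 1.2, interval 1.01 to 1.43), with Mmp9 in 9.74 and 10.5% of KCs and in 2.37 and 3.3% of thinned KCs. KCs, with 44.1 and 51.5% of the ND cells, held 30.1 and 17.7% of all Mmp9 counts on ND, against 59 and 77% for neutrophils. On CDA-HFD neutrophils held 89.8 and 87.2%. Per 1000 counts of S100a8, S100a9 and Retnlg, ND KCs had 64.5 and 77.1 Mmp9 counts and ND neutrophils 8.61 and 11.3. Monocytes and monocyte-derived macrophages had little Mmp9, 1.68 to 4.06 CPM in Ly6Chi monocytes and at most 7.32 CPM in monocyte-derived macrophages. The all-cell Mmp9 ratio between genotypes on ND, 2.31, was larger than the ratio of 1.32 within neutrophils, beside neutrophil shares of 6.04 and 11.9% of the ND cells.

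**Figure D3:**
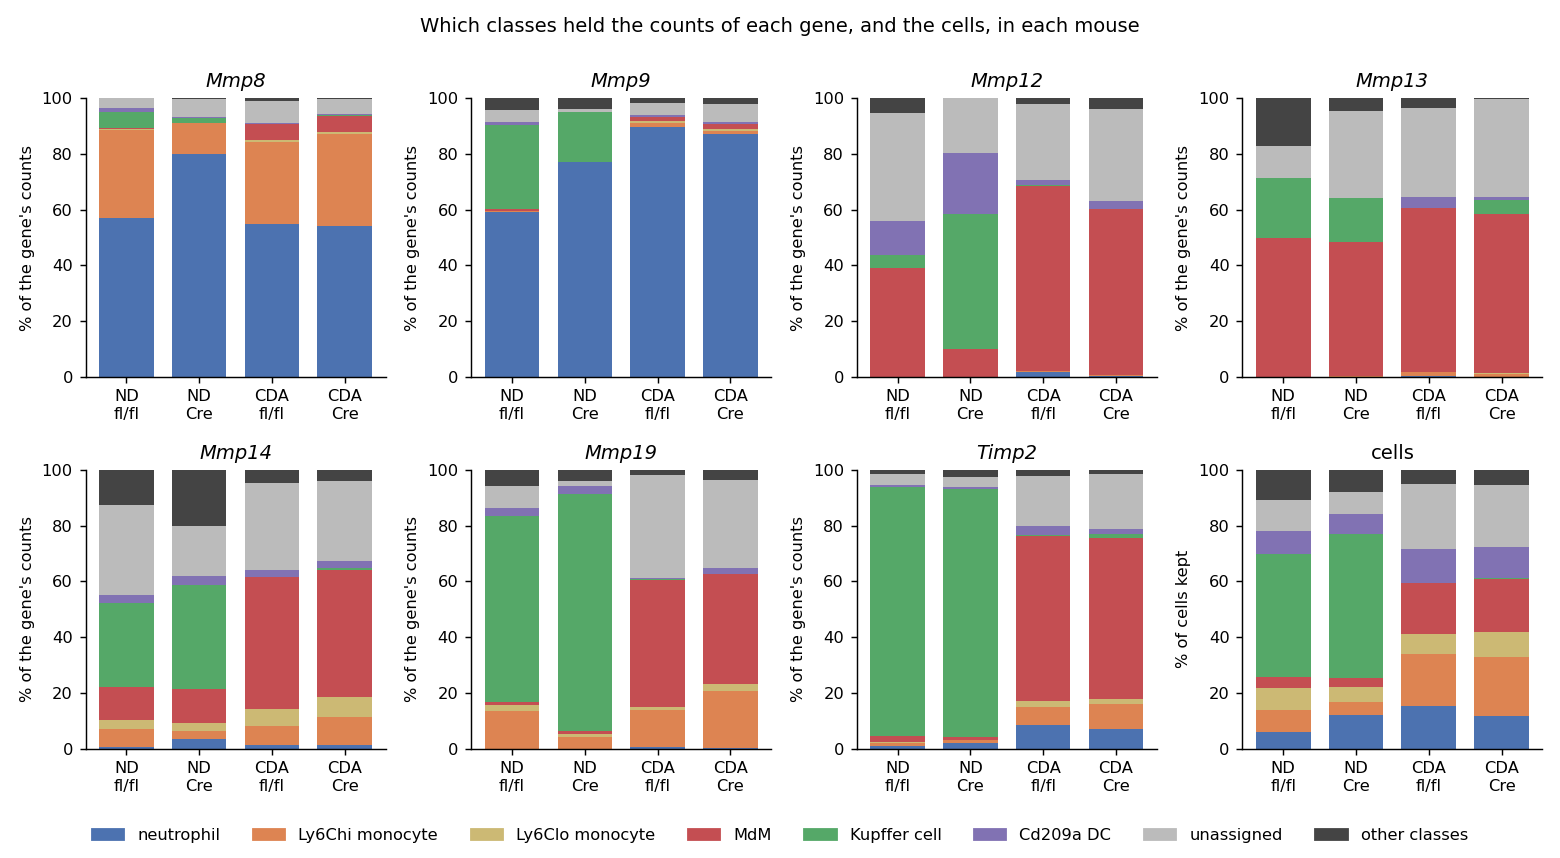
Percentage of each gene's counts that came from each class in each mouse, as stacked bars, beside the percentage of cells in each class. Neutrophils hold most Mmp9 counts in all 4 mice (59 to 89.8%), and Timp2 moves from KCs on ND (89.3 and 89.1%) to monocyte-derived macrophages on CDA-HFD (59.3 and 57.8%).

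Mmp12, the macrophage elastase, had its highest level in monocyte-derived macrophages, which held 38.9, 9.83, 66.6 and 59.5% of its counts. In the ND-fed Lyz2Cre/+.Egr2fl/fl mouse, with 173 Mmp12 counts in all, KCs held more of them (48.6%, 84 counts in 6 cells). The macrophage Mmp12 level was 138, 23.4, 471 and 192 CPM (intervals 115 to 164, 13.6 to 37.4, 463 to 480 and 186 to 197), higher on CDA-HFD in both genotypes and lower in the Lyz2Cre/+.Egr2fl/fl mouse on both diets. The diet ratio was 3.42 (2.88 to 4.09) in the Egr2fl/fl pair and 8.2 (5.12 to 14.1) in the Lyz2Cre/+.Egr2fl/fl pair. The ND values rest on 132 counts in 7 cells and 17 counts in 3 cells, and as a mean over cells of each cell's CPM the diet ratios were 2.84 and 2.75. The genotype ratio was 0.407 (0.393 to 0.42) on CDA-HFD, on 11884 and 4865 counts, and 0.169 (0.0957 to 0.282) on ND, where the mean over cells gave 0.453.

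Among monocyte-derived macrophages of the Egr2fl/fl pair Mmp8, Mmp12 and Mmp19 were past 2-fold higher on CDA-HFD, 3 of 6 members tested where 9.77% of all tested genes were, and the same 3 were in the Lyz2Cre/+.Egr2fl/fl pair (11.8%). The ND counts behind the Mmp8 ratios were 1 and 0, and with classes from clusters the Egr2fl/fl ratio of Mmp8, 4.55, was 1.78. Mmp13 was past 2-fold lower in both pairs (10.7 and 10.5% of all tested genes). Between genotypes on CDA-HFD, Mmp12 and Mmp19 were past 2-fold lower, 2 of 7 members where 0.571% of all tested genes were, with no member past 2-fold higher (0.844%). On ND, with 3 members tested, Mmp12 was past 2-fold lower (1.81%).

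Mmp12 was found in a minority of monocyte-derived macrophages, 10.1, 5.77, 21.9 and 9.92% of them. In the thinned cells the shares were 10.1, 5.77, 18.1 and 8.91%, against 0 of 104 and 0 of 190 ND neutrophils and 0.223 and 0.275% of CDA-HFD neutrophils, which have a lower median depth (3792 to 4077 against 10692 to 21796 counts). The lowest Mmp12 value above 0 in the deposited matrix is 5, while that of the other 6 members is 1, so low values of this gene had been set to 0 before deposit. The shares are therefore of cells with at least 5 counts, the levels and ratios of Mmp12 leave out the lower values, and a deeper cell reaches that limit more easily. Median depths of the macrophages were 10692, 10774, 21796 and 19364 counts, and the part of this limit in the Mmp12 ratios was not tested. The highest single cell of the CDA-HFD mice had 377 and 342 counts, and the 10 highest macrophages held 26.1 and 39.2% of the class's Mmp12 counts. Without the 1% of cells with the highest Mmp12 the CDA-HFD genotype ratio was 0.35.

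Outside this class Mmp12 was found in the unassigned cells, at 43.8, 18.6, 244 and 135 CPM, 598 of which lay in a macrophage cluster of all cells led by F7, Spp1 and Gpnmb, and at a low level in Cd209a dendritic cells (17.1, 18.7, 28.3 and 21.6 CPM). In KCs it was at 0.844 and 4.51 CPM on ND, a ratio of 5.34 (3.11 to 9.77) that rests on 16 counts in 2 cells and 84 counts in 6 cells (0.803% of all tested genes were past 2-fold higher there) and was 12.8 without the cells of highest Scrublet doublet scores. No Mmp12 count was found in Ly6Chi or Ly6Clo monocytes on ND, and on CDA-HFD their level was at most 4.51 CPM. In neutrophils it was found in 4 cells of the CDA-HFD mice, with 282 and 29 counts, 277 of them in 1 cell, which put it past 2-fold lower between genotypes where 0.861% of all tested genes were. All 4 lay in a neutrophil cluster of 59 cells led by H2-Ab1 and C1qb, in which 10 macrophage markers were raised, and their totals ran from 8501 to 43392 counts against a median of 4040 for all neutrophils. The 4 cells themselves held from 1 to 12 of the 12 macrophage markers, against a median of 1 in the other neutrophils.

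The genotype difference in Mmp12 was followed across clusters of the CDA-HFD monocytes and macrophages, made without the members. Of 7 clusters with at least 100 Mmp12 counts, 5 had a ratio of Lyz2Cre/+.Egr2fl/fl to Egr2fl/fl below 1, 4 of them with an interval wholly below 1, and 2 had a ratio above 1. The most Mmp12 stood in the cluster led by Cd5l, Cd207 and Clec1b, in which 5 markers of monocyte-derived KCs (moKCs) and 5 of hepatic lipid-associated macrophages (hLAMs) were raised, at 728 and 262 CPM, a ratio of 0.36 (0.347 to 0.373). In the cluster led by Srxn1, Slc7a11 and Spp1, the last a marker of hLAMs, it was at 306 and 186 CPM (0.607, 0.575 to 0.642), and in the cluster led by Tmem119 and Olfml3 at 66.6 and 16.8 CPM (0.252). The proliferating cells went the other way, at 138 and 315 CPM (2.29, 1.96 to 2.68), on 47 and 65 cells, as did a cluster led by Malat1 with a low median depth (82.2 and 116 CPM, 1.41). The clustering of all cells, which also took in dendritic cells and neutrophils, was more evenly split. There 4 of 8 clusters had a ratio below 1, and 3 intervals lay wholly below 1 and 3 wholly above.

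The diet ratio of Mmp12 in macrophages compared cells of different kinds. The cluster of all cells led by Tmem119, Olfml3 and Pf4 held 78.3 and 78.8% of ND monocyte-derived macrophages and 32.4 and 37.4% of CDA-HFD ones, while the cluster led by F7, Spp1 and Gpnmb held 1.45 and 3.85% of the ND and 46 and 38.5% of the CDA-HFD ones. Within the Tmem119 cluster Mmp12 was at 75.8, 49.7, 133 and 53.9 CPM, with diet ratios of 1.76 (1.38 to 2.27) and 1.08 (0.816 to 1.47). In the Spp1 cluster it was at 778 and 335 CPM on CDA-HFD, a genotype ratio of 0.431.

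When the CDA-HFD macrophages were divided by which of 2 marker sets was higher, Mmp12 was at 518 CPM in hLAM-higher and 232 CPM in moKC-higher cells of the Egr2fl/fl mouse, and at 207 and 137 CPM in those of the Lyz2Cre/+.Egr2fl/fl mouse. The moKC-higher cells numbered 185 and 277, the hLAM-higher 873 and 902. The genotype ordering was the same in both kinds of cell. The division is a range of a score and not a type: 105 and 131 of the moKC-higher and 114 and 173 of the hLAM-higher cells lay close to the limit.

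**Figure D4:**
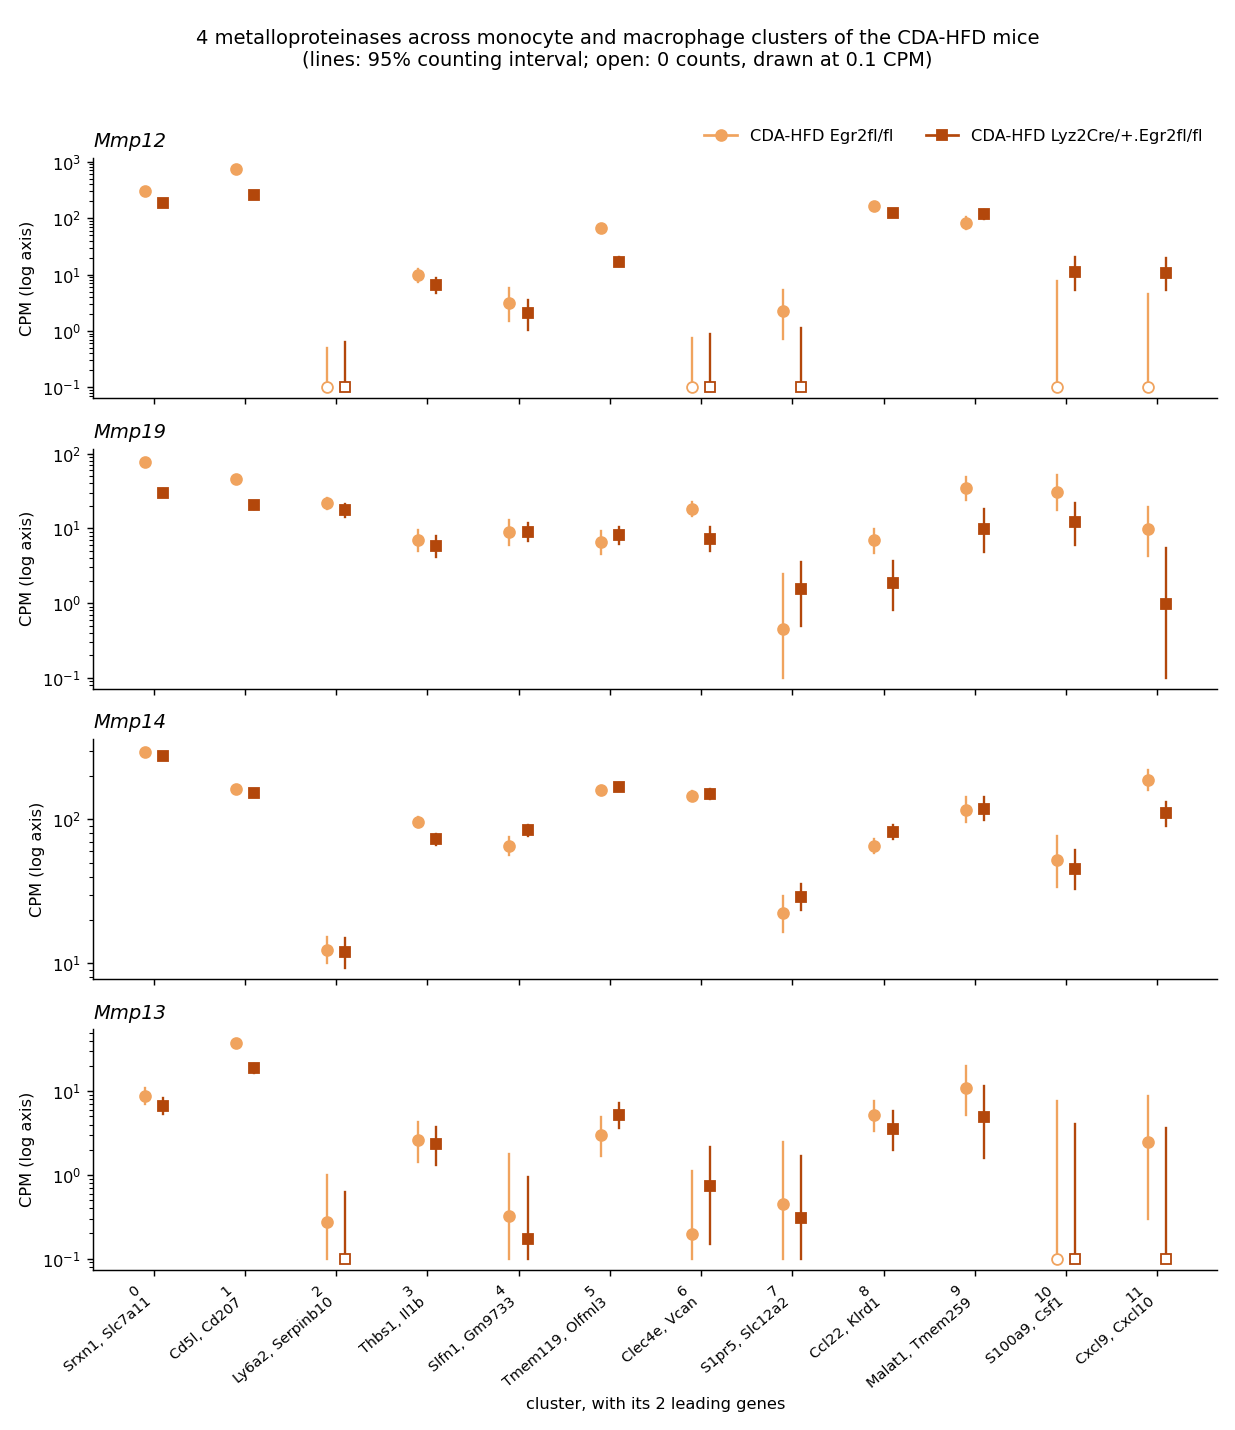
Levels of Mmp12, Mmp19, Mmp14 and Mmp13 in clusters of monocytes and macrophages of the CDA-HFD mice, in CPM with exact Poisson 95% intervals, for clusters where both mice have 50 cells or more. For Mmp12 and Mmp19 the Lyz2Cre/+.Egr2fl/fl points lie below the Egr2fl/fl points in the clusters where the gene is highest (728 and 262 CPM for Mmp12, 78.1 and 30.1 CPM for Mmp19), while the Mmp14 points lie close together (294 and 278 CPM where it is highest).

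Mmp13, a collagenase, was also highest in monocyte-derived macrophages, but in those of the ND mice. Its level there was 279, 264, 20.1 and 10.3 CPM (intervals 247 to 315, 228 to 304, 18.4 to 22 and 9.07 to 11.6), so that both CDA-HFD mice lay far below both ND mice. The diet ratio was 0.0722 (0.0621 to 0.084) in the Egr2fl/fl pair and 0.039 (0.0322 to 0.0472) in the Lyz2Cre/+.Egr2fl/fl pair, the first 0.0443 as a mean over cells and 0.0421 without the 1% of cells with the highest Mmp13. Between genotypes the ratio was 0.945 (0.781 to 1.14) on ND and 0.51 (0.438 to 0.594) on CDA-HFD, the latter 0.33 under a stricter gate.

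Mmp13 was found in 43.5 and 42.3% of ND monocyte-derived macrophages (30 and 22 cells) and in 8.13 and 5.26% of CDA-HFD ones, or 33.3, 34.6, 2.74 and 1.95% of thinned cells. In neutrophils the shares without thinning were 0 of 104, 0 of 190, 0.223% and 0 of 726, and in Cd209a dendritic cells the level was at most 2.83 CPM. In the cluster led by Tmem119, Olfml3 and Pf4, which holds most ND macrophages, the level was 374, 290, 36.8 and 17.8 CPM. The diet ratio there was 0.0984 (0.0849 to 0.114) and 0.0612 (0.0513 to 0.0729), and the CDA-HFD genotype ratio 0.483 (0.408 to 0.569): the low CDA-HFD level was seen within the cluster too. Monocyte-derived macrophages held 50, 48.1, 58.7 and 57.2% of the Mmp13 counts although they were 4 and 3.27% of the ND cells. ND KCs, at 6.06 and 3.38 CPM (0.558, 0.403 to 0.765), held 21.5 and 15.8%.

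The counts of Mmp13 were concentrated: the 10 highest macrophages held 81.3, 76.6, 52.8 and 59% of the class's counts. The chromosome 9 neighbours Mmp13 and Mmp12, 61 kb apart, had diet ratios on opposite sides of 1 in the same class of cells. Within the CDA-HFD macrophages, after thinning, Mmp13 was in 9.9% (6.06 to 15) of cells with Mmp12 against 1.15% (0.555 to 2.11) of those without in the Egr2fl/fl mouse, and in 5.71 against 1.58% in the Lyz2Cre/+.Egr2fl/fl mouse. Cells with Mmp12 were deeper before thinning (median 29556 against 20678 counts in the Egr2fl/fl mouse).

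Mmp14, the membrane-bound enzyme, was the most widely found member. In monocyte-derived macrophages it was at 142, 100, 182 and 182 CPM, with diet ratios of 1.28 (1.08 to 1.53) and 1.82 (1.44 to 2.32). The genotype ratio on CDA-HFD was 1 (0.963 to 1.05), on 4587 and 4633 counts, so that a genotype difference beyond that interval was not seen in these libraries. On ND it was 0.706 (0.523 to 0.944), which became 1.14 as a mean over cells. Mmp14 was found in 49.3, 38.5, 73.2 and 68.8% of these macrophages. In thinned cells the shares were 20.3, 17.3, 34.3 and 36.7%, against 1.92, 6.84, 4.57 and 5.37% of thinned neutrophils. Over 12 clusters of the CDA-HFD monocytes and macrophages the genotype ratio ran from 0.582 to 1.3, with 5 intervals wholly below 1 and 2 wholly above. In moKC-higher and hLAM-higher macrophages it was at 168 and 185 CPM in the Egr2fl/fl mouse and at 187 and 181 CPM in the Lyz2Cre/+.Egr2fl/fl mouse.

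The larger diet difference in Mmp14 was in Ly6Clo monocytes, the patrolling monocytes, at 32.1, 23.8, 131 and 122 CPM. Both CDA-HFD mice lay above both ND mice, with diet ratios of 4.07 (2.9 to 5.91) and 5.14 (3.19 to 8.87), where 5.85 and 8.13% of all tested genes were past 2-fold higher. A stricter gate gave 13.4 in the Egr2fl/fl pair, and leaving out the 1% of cells with the highest Mmp14 gave 7.43 and 14.6, so the direction held while the size did not. The ND levels rest on 35 and 17 counts. Mmp14 was found in 7.25, 5.81, 27.8 and 29.9% of Ly6Clo monocytes, and in 2.9, 1.16, 16.7 and 17.4% of thinned cells. In the CDA-HFD clusters the cells led by S1pr5, a marker of Ly6Clo monocytes, had 22.4 and 29 CPM. This was well below the gated CDA-HFD class and near the gated ND levels of 32.1 and 23.8 CPM. The high gated CDA-HFD level was therefore not seen in that cluster. Of the gated class, 24.6% lay close to the limit of its gate. With classes from clusters on both diets the Egr2fl/fl diet ratio was 3.16.

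In Ly6Chi monocytes Mmp14 was at 41.9, 18.3, 45.7 and 57.6 CPM, with a genotype ratio of 1.26 (1.14 to 1.39) on CDA-HFD. The Lyz2Cre/+.Egr2fl/fl diet ratio, 3.15, was past 2-fold (9.92% of all tested genes), on 18 ND counts, and the Egr2fl/fl ratio was 1.09, which became 3.66 with classes taken from clusters. ND KCs had 18 and 12.3 CPM (0.684, 0.576 to 0.81). Endothelial cells, of which only 23, 41, 17 and 57 passed the sort, had 33, 99, 36 and 148 Mmp14 counts and held 16.3% of all Mmp14 counts in the ND-fed Lyz2Cre/+.Egr2fl/fl mouse. Across all cells Mmp14 went from 35.4 to 114 CPM (3.21) and from 21.9 to 113 CPM (5.15) with diet, and between genotypes on CDA-HFD the ratio was 0.991 (0.963 to 1.02). Monocyte-derived macrophages held 12% of the counts in each ND mouse and 47.3 and 45.6% on CDA-HFD.

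Most Mmp19 counts came from KCs on ND, and the largest part from monocyte-derived macrophages on CDA-HFD. By level, Ly6Chi monocytes lay above KCs in the ND-fed Egr2fl/fl mouse but not in the ND-fed Lyz2Cre/+.Egr2fl/fl mouse. Its macrophage level was 4.18, 2.75, 37.2 and 16.3 CPM (intervals 1.14 to 10.7, 0.333 to 9.93, 34.8 to 39.6 and 14.8 to 18), with 4, 2, 937 and 415 counts. The diet ratios, 8.89 (3.46 to 32.7) and 5.95 (1.64 to 49.3), have wide intervals because of the few ND counts, and the first was 23.3 as a mean over cells. The genotype ratio on CDA-HFD was 0.44 (0.391 to 0.494), or 0.51 under a stricter gate. Mmp19 was in 20.9 and 12.9% of the CDA-HFD macrophages, or in 6.62 and 2.88% of thinned cells, against 0.78 and 0.275% of CDA-HFD neutrophils.

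The lower Mmp19 level of the Lyz2Cre/+.Egr2fl/fl mouse was seen in all 4 clusters that had 100 counts or more, 3 of them with an interval wholly below 1. It was at 78.1 and 30.1 CPM in the cluster led by Srxn1, Slc7a11 and Spp1 (0.386), at 45.9 and 20.3 CPM in the cluster led by Cd5l and Cd207 (0.444), at 18.1 and 7.29 CPM in monocytes led by Clec4e and Vcan (0.402), and at 21.6 and 17.7 CPM in the main Ly6Chi monocyte cluster (0.82, 0.633 to 1.06). Unassigned cells had 38.4 and 16.6 CPM on CDA-HFD (0.432, 0.378 to 0.492), and Mmp19 was the only member past 2-fold lower there, where 0.338% of all tested genes were, although classes from clusters gave 0.559. Ly6Chi monocytes had 25.7, 8.12, 19 and 12.2 CPM, with a CDA-HFD genotype ratio of 0.642. The ND counts were too few for a genotype ratio on ND. Neither diet ratio of Mmp19 in Ly6Chi monocytes was past 2-fold, and in the Egr2fl/fl pair the CDA-HFD level was the lower. In hLAM-higher macrophages Mmp19 was at 42.4 and 18.4 CPM. In moKC-higher ones it was at 10.5 (7.58 to 14.1) and 8.97 CPM (6.65 to 11.8), on 43 and 50 counts, and these intervals overlap.

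ND KCs had 12 and 8.91 CPM of Mmp19 (0.744, 0.606 to 0.913), with counts in 12.8 and 11% of cells and in 3.16 and 2.56% of thinned cells. They held 66.8 and 85.1% of all Mmp19 counts on ND, and monocyte-derived macrophages held 45.6 and 39.3% on CDA-HFD. The all-cell level, 10.6, 7, 24.1 and 11.7 CPM, therefore set KCs of ND mice against macrophages and monocytes of CDA-HFD mice.

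**Figure D5:**
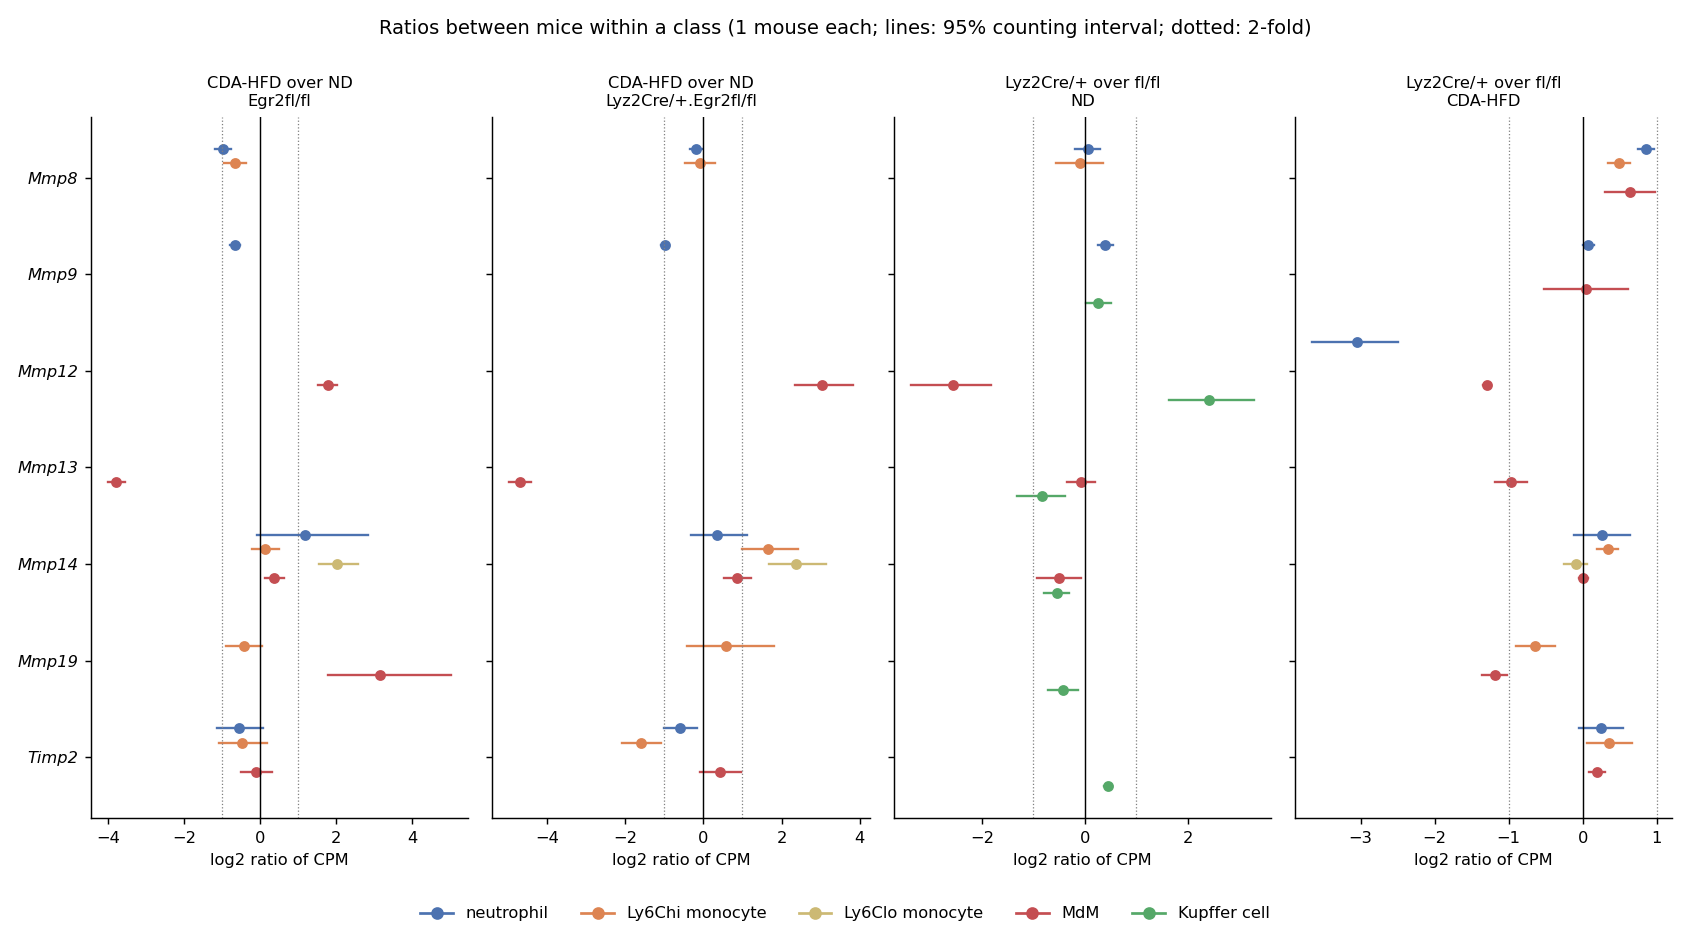
Log2 ratios of the 7 genes by class for the 4 comparisons (CDA-HFD over ND in each genotype, Lyz2Cre/+.Egr2fl/fl over Egr2fl/fl on each diet), with exact 95% counting intervals, for ratios with at least 100 counts in all and over 3 counts in each mouse. Mmp12 and Mmp13 in monocyte-derived macrophages lie on opposite sides of 0 for diet (ratios 3.42 and 0.0722 in the Egr2fl/fl pair), and Mmp12 and Mmp19 lie below 0 for genotype on CDA-HFD (ratios 0.407 and 0.44).

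Most ND counts of Timp2, the inhibitor, came from KCs. These cells were also deeper than all cells of their mouse, with medians of 25706 and 23220 against 16459 and 15864 counts. By level Timp2 was not confined to KCs. On ND it stood at 134 and 95.5 CPM in the cluster led by Tmem119, Olfml3 and Pf4, and at 65.4 and 79.3 CPM in neutrophils. KCs held 89.3 and 89.1% of the ND Timp2 counts. Their Timp2 level was 118 CPM (114 to 123) in the Egr2fl/fl mouse and 162 CPM (156 to 168) in the Lyz2Cre/+.Egr2fl/fl mouse, a ratio of 1.37 (1.3 to 1.45). Timp2 was found in 69.2 and 68% of KCs. In thinned cells the shares were 27.4 and 31.7% of KCs, against 10.6 and 12.6% of ND neutrophils. In ND Ly6Clo monocytes its level was 6.42 and 2.8 CPM. Across all cells Timp2 was at 78.5, 122, 26.5 and 29.6 CPM, with diet ratios of 0.337 (0.318 to 0.357) and 0.243 (0.231 to 0.256), beside the KC share of 44.1 and 51.5% of cells on ND and 0.221 and 0.42% on CDA-HFD. The 13 and 26 CDA-HFD KCs had 8 and 36 Timp2 counts. From the all-cell values alone, fewer KCs and less Timp2 RNA per cell cannot be told apart.

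In monocyte-derived macrophages, by contrast, the 4 mice were close together, at 57.5, 45.4, 53 and 60.7 CPM of Timp2. The diet ratios were 0.922 (0.704 to 1.23) and 1.34 (0.948 to 1.95), both with intervals across 1. They turned on the cells compared: with classes taken from clusters they were 0.387 and 0.585, within the cluster led by Tmem119, Olfml3 and Pf4 they were 0.437 (0.36 to 0.534) and 0.678 (0.55 to 0.845), on levels of 134, 95.5, 58.7 and 64.8 CPM, and under TMM scaling the first was 1.16. The genotype ratio on CDA-HFD was 1.14 (1.06 to 1.23). In the CDA-HFD clusters no Timp2 ratio had an interval wholly below 1 and 3 of 7 had one wholly above, from 0.795 to 1.92. Neutrophils had 65.4, 79.3, 44.2 and 52.6 CPM of Timp2 and Ly6Chi monocytes 14.5, 40.6, 10.5 and 13.4 CPM, the latter with a diet ratio of 0.33 in the Lyz2Cre/+.Egr2fl/fl pair, past 2-fold lower where 4.48% of all tested genes were.

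Members with the same source class were also read cell by cell, in thinned cells. Neutrophils with Mmp8 had Mmp9 in 76% (69.5 to 81.7) against 62% (58.2 to 65.6) of those without it in the CDA-HFD-fed Egr2fl/fl mouse. On the same diet the Lyz2Cre/+.Egr2fl/fl mouse had 74.8% (68.7 to 80.3) against 65.7% (61.4 to 69.9), with intervals that overlap. In the ND mice the shares were 85.1 against 75.4% and 95.8 against 88.1%. In CDA-HFD macrophages the shares for Mmp12 and Mmp14 lay close together: Mmp14 was in 34.9% of cells with Mmp12 and 34.2% of those without in the Egr2fl/fl mouse, and in 35.2 and 36.9% in the Lyz2Cre/+.Egr2fl/fl mouse. Mmp19 was in 10.9% (6.9 to 16.2) of Egr2fl/fl macrophages with Mmp12 against 5.66% (4.21 to 7.41) of those without. In the Lyz2Cre/+.Egr2fl/fl mouse it was in 3.81% (1.05 to 9.47) against 2.79% (1.89 to 3.96). The intervals overlap in both mice. Timp2 was in 9.92 and 11.1% of macrophages with Mmp14 and in 11.5% of those without it in each mouse.

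Over the 32 sums of a class in a mouse with at least 50 cells, the genes of the matrix whose levels followed each member most closely, by Pearson's r of log2(CPM + 10) among 11689 genes, were as follows. Ly6g (0.98), Padi4 (0.97) and Tarm1 (0.95) were the most like Mmp8, of which Ly6g was also a neutrophil marker of the gate, and Lrg1, H2-Q2 and AC118710.1 (each 0.98) the most like Mmp9. Dnmt3aos (0.82) and Ctsk (0.80) came nearest to Mmp12, and Creb5 (0.94), Col14a1 (0.92) and G530011O06Rik (0.90) to Mmp13. For Mmp14 they were Nrp2 (0.84), Rai14 (0.83) and Cstb (0.79), for Mmp19 Lgals3 (0.79), Slc30a1 (0.78) and Aprt (0.74), and for Timp2 P2ry13 (0.87), Slc40a1 (0.87) and Oas2 (0.84). Slc40a1 was also a KC marker of the gate. Among the members the highest was Mmp8 with Mmp9 (0.84), while Mmp12 and Mmp13 gave 0.34 and Timp2 and Mmp14 -0.01. The sums share 4 mice and 1 library, so these are descriptions.

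Other genes of the pathway were read in the same way over all cells. Of 17 other Mmp genes listed, 11 were in the matrix and few had enough counts: Mmp25, a membrane-anchored enzyme of neutrophils, went from 4.68 to 10.1 CPM with diet in the Egr2fl/fl pair (2.16), and Mmp27, which lies in the chromosome 9 run, from 17.6 to 1.89 CPM (0.107) and in the Lyz2Cre/+.Egr2fl/fl pair from 16.7 to 3.26 CPM (0.196). Of the 7 other inhibitors listed, Timp1 was higher on CDA-HFD, from 0.187 to 3 CPM in the Egr2fl/fl pair (16, interval 7.27 to 44.1) and with 193 counts against 0 in the Lyz2Cre/+.Egr2fl/fl pair. Timp3, an inhibitor bound to the matrix, was lower (0.341 and 0.352).

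Of 13 listed activators and partners of these enzymes, 6 of 11 tested in the Egr2fl/fl pair and 7 of 12 in the Lyz2Cre/+.Egr2fl/fl pair were past 2-fold higher on CDA-HFD, where 5.21 and 5.3% of all tested genes were, and none was past 2-fold lower (10.5 and 11%). Their median log2 ratios were 1.05 and 1.08, against -0.14 and -0.15 over all tested genes. Plau, the urokinase that generates plasmin, had ratios of 2.07 and 2.04, its receptor Plaur 4.78 and 4.34, and Lcn2, which binds Mmp9, 3.16 and 2.63. In monocyte-derived macrophages Plaur (3.69 and 2.69) was also past 2-fold higher. Between genotypes on CDA-HFD the median log2 ratio of the 13 over all cells was 0.01, against 0.03 over all tested genes, and among macrophages none of the other listed genes with enough counts was past 2-fold.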

How the data were processed

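scRNA-seq of the sorted liver cells was deposited by the authors as raw whole-number counts of each gene in each barcode, beside hashtag counts. Reads had been mapped to GRCm38 transcripts, barcodes kept by an inflection point of their counts, and mice assigned by hashtag. GRCm38, R 4.2.1 and Seurat 4.1.1 are named in the submitters' processing notes. Whether reads or unique molecules were counted is not stated, and if reads were counted the intervals are too narrow. Low values of some genes, Mmp12 among them, had been set to 0 before deposit.

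The 1392 barcodes named doublets and 10 cells over 25% mitochondrial counts were left out of 16786 barcodes, which left 15384 cells, and the 7 other hashtag columns were not used. Cells were gated on fixed marker lists (mean scaled log expression, lead of at least 0.1, score of at least 0.3, at least 3 markers detected, and more for the longer lists). Raw counts were summed per class and mouse, and ratios were formed for genes with at least 100 counts over both mice. Shares were also computed with cells thinned to 3000 counts. Clusters were made with Seurat 5.3.0 without the members. Scripts ran in Python 3.11.15 with numpy 2.4.6, scipy 1.17.1 and scanpy 1.11.5, and TMM factors came from edgeR 4.0.16 in R 4.3.3. Scrublet called 69 cells (0.449%), too few to be relied on, so the 769 highest scores (5%) were removed as an alternative. The gate alternatives were a stricter lead of 0.4, classes from clusters, cells with at least 90% of counts from their own hashtag, TMM scaling, a mean over cells and removal of the highest 1% of cells. Neutrophils without 1 cluster were added after seeing the data. On simulated counts for the 9959 genes of the Egr2fl/fl diet comparison in monocyte-derived macrophages, 200 of 200 genes altered by known folds were recovered, and 392 of 9759 unaltered genes passed 2-fold by counting noise. For the CDA-HFD genotype comparison in the same class, 196 of 200 altered genes were recovered and 0 of 11150 unaltered genes passed 2-fold. The altered genes were drawn only from those with enough counts, and their folds all lay beyond the 2-fold limit, which made recovery easy. The counts were simulated without the concentration in few cells seen in the data, so noise from that source is not covered.

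The members, the lists of other genes and the comparisons were chosen with earlier results of these data known. The text names the 7 members, the genes of the fixed lists past 2-fold and found in at least 1% of a mouse's cells, and for each member the 3 genes most like it, except for some genes that are not reported here by name. Promoter windows of Mmp9 and Mmp19 were not used here.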

Additional observations from a re-analysis of the deposited data

How the results depend on the processing

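Of 903 recomputed ratios of the members, 849 stayed on the same side of 1 and 54 turned. The turned ratio that was past 2-fold was that of Mmp12 in CDA-HFD neutrophils between genotypes, 0.121 as reported and 2.65 under a stricter gate. The CDA-HFD genotype ratio of Mmp8 in neutrophils, 1.8, was 1.54 with classes from clusters, 1.55 with cells of at least 90% own hashtag, 2.02 without the highest 1% of cells and 1.44 without the cluster led by Ngp. The Egr2fl/fl diet ratio of Mmp9 in neutrophils, 0.63, was 0.852 under TMM scaling. In monocyte-derived macrophages that of Mmp12, 3.42, was 4.49 with classes from clusters, 2.84 as a mean over cells and 4.31 under TMM scaling, and that of Mmp13, 0.0722, was 0.0443 as a mean over cells, 0.0912 under TMM scaling and 0.0421 without the highest 1%. The CDA-HFD genotype ratio of Mmp12 there, 0.407, was 0.388 with classes from clusters, 0.361 under a stricter gate, 0.439 as a mean over cells, 0.391 without the highest Scrublet scores and 0.35 without the highest 1%, and that of Mmp19, 0.44, was 0.51 under a stricter gate. The Ly6Clo monocyte diet ratio of Mmp14, 4.07, was 13.4 under a stricter gate and 7.43 without the highest 1%, and the ND genotype ratio of Timp2 in KCs, 1.37, was 1.27 as a mean over cells and 1.47 with cells of at least 90% own hashtag. The causes were not tested. TMM scaling shifted macrophage diet ratios by 0.34 (log2) in both pairs. Without a minimum of counts, 28 of 29 percentages of all genes past 2-fold moved by over 1.5 times. A mitochondrial limit of 10% moved no ratio beyond its counting interval. No paired analysis was possible because each group is 1 mouse, and for the same reason no replicate could be left out.

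With 1 mouse per group, differences between mice of the same diet and genotype cannot be told apart from those of diet or genotype. Depth limits the ND macrophages (69 and 52 cells), where a ratio rests on few counts, and the CDA-HFD KCs (13 and 26 cells), for which no ratio is given. All cells were in 1 library.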

Other observations

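Other secreted and membrane proteases of the sorted cells were read for the same comparisons, in lists of disintegrin metalloproteinases (ADAMs) and cysteine and aspartyl cathepsins. Over all cells Adam8, a shedding enzyme of myeloid cells, was higher on CDA-HFD in both pairs (ratios 4.23 and 3.98), as was Adam15 (2.97 and 3.34). Adamdec1, a soluble ADAM-like enzyme of macrophages, went the other way, from 101 to 6.05 CPM in the Egr2fl/fl pair (0.0598) and with a ratio of 0.0654 in the Lyz2Cre/+.Egr2fl/fl pair, the same direction as Mmp13, Mmp27 and Timp3.

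Among the cathepsins, Ctsk, a collagen-cutting enzyme that is best known from osteoclasts, had all-cell diet ratios of 14.3 and 15.9. In monocyte-derived macrophages of the Egr2fl/fl pair it had 532 counts on CDA-HFD against 3 on ND (6.73), and Ctsd (3.86 and 3.59) and Ctsl (2.08 and 3.61) were also past 2-fold higher there in both pairs. Ctsk was also among the 3 genes whose levels over classes and mice were most like those of Mmp12 (r = 0.80).

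Neutrophil granule genes were higher over all cells on CDA-HFD: 7 of 9 tested in the Egr2fl/fl pair and 5 of 9 in the Lyz2Cre/+.Egr2fl/fl pair were past 2-fold, where 5.21 and 5.3% of all tested genes were, among them Camp (2.88 and 3.17), Ltf (3.99 and 3.65) and Ngp (6.8 and 3.92). Neutrophils were 6.04 and 11.9% of the ND cells and 15.3 and 11.7% of the CDA-HFD cells, and their part in these ratios was not tested.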
